A study of Mus musculus with 18 samples.

Results

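Celsr2, Vat1l, Wscd2, Acsm3, Gldn and Olig1 are 6 of the 55487 genes in the count tables of this mouse study, and they were chosen by their read counts, which were far lower in adipocyte-specific Csn8 knockout fat than in control fat. The genotype differences given for them therefore describe the choice and carry no test. Bulk RNA-seq was run on subcutaneous white adipose tissue (sWAT) of 12-week-old males and on brown adipose tissue (BAT) of 4-week-old males, all fasted for 4 h, with 1 mouse per library. Knockout mice (Csn8AKO) carried floxed Csn8 alleles and a Cre transgene driven by the Adiponectin promoter, which removes exons of Csn8 in fat cells and leaves the other cells of the depot with the intact gene. Control mice (Ctrl) were floxed littermates without Cre, labelled WT, so both groups shared the floxed alleles. There were 4 Ctrl and 4 Csn8AKO libraries of sWAT and 5 of each genotype of BAT. Depot and age change together, so a difference between sWAT and BAT cannot be told apart from a difference between 12 and 4 weeks.

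The COP9 signalosome is a protein complex that strips the ubiquitin-like protein NEDD8 from cullins and so controls the large cullin-RING family of ubiquitin ligases, and CSN8 is its smallest subunit. Adipocytes are the fat-storing cells of a depot, which also holds vascular, immune, fibroblast and nerve-associated cells. The 6 genes have little in common in their known roles. Celsr2 encodes a large adhesion receptor of the cadherin superfamily that acts in planar cell polarity, the alignment of cells within a sheet. Gldn encodes gliomedin, a protein made by Schwann cells that gathers sodium channels at the nodes of Ranvier of peripheral nerve. Olig1 is a basic helix-loop-helix transcription factor of the oligodendrocyte lineage. Acsm3 is a mitochondrial enzyme that activates medium-chain fatty acids to acyl-CoA. Vat1l is a little-studied relative of the vesicle protein Vat1, and Wscd2 encodes a membrane protein with WSC domains.

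RefSeq promoter windows on GRCm38.p6, 250 bases before to 50 after the start of transcription, were available for 4 of the 6 genes. They are shown, 5′ to 3′ on the strand of the gene and with CpG pairs in capitals, to show how unlike each other the starts of these genes are. The Celsr2 window lay at chr3:108415530-108415829 on the minus strand, that of Vat1l at chr8:114205390-114205689, that of Acsm3 at chr7:119760673-119760972 and that of Gldn at chr9:54286236-54286535, the last 3 on the plus strand.
Celsr2: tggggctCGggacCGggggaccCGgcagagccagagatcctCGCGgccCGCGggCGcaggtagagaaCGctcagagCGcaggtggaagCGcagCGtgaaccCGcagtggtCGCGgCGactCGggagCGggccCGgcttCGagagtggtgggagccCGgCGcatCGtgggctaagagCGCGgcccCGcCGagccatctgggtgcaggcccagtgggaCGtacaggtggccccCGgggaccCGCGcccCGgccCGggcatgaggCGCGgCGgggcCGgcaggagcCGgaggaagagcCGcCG
Vat1l: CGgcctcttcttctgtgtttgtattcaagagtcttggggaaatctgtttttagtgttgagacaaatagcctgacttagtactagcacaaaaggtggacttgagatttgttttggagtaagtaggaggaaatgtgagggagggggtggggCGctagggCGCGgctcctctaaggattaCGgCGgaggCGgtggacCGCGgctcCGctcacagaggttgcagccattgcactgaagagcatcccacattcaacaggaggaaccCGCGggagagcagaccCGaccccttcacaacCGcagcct
Acsm3: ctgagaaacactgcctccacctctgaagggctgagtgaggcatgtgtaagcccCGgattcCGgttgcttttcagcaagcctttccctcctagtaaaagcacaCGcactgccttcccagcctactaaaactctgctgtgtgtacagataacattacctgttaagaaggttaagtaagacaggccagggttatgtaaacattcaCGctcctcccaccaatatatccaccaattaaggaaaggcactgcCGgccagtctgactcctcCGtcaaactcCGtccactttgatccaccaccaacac
Gldn: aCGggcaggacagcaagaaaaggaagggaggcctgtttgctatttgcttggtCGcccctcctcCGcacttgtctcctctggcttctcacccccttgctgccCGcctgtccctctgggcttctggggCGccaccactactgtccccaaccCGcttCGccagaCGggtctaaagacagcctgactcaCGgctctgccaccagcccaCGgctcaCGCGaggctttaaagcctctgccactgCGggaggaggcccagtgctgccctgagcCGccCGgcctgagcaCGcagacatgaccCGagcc
The Celsr2 window was 76.3% G and C with 40 CpG pairs and the Acsm3 window 50% with 7, against medians of 52.7% and 7 over 32851 windows of the same length. The Gldn window had 17 CpG pairs at 65% G and C and the Vat1l window 14 at 54.3%. Both strands were searched for AGGTCA, the core of nuclear receptor sites, for TTGCNNAA, the core of the C/EBP site, and for TATAAA. These letters occurred in 16.3%, 10.8% and 13.6% of all windows. Among the 4 genes the only match was 1 TTGCNNAA in the Acsm3 window, from base 70 to base 77. The 4 windows thus ran from the median CpG count to well above it, and no letters searched were shared by any pair of them. Wscd2 and Olig1 are named without a window.

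Read totals over genes ranged from 15835721 to 23109603 in sWAT and from 26658593 to 66719937 in BAT, so the same level rested on more reads in BAT. Levels are given as CPM, the reads of a gene scaled to a common library size, after the TMM scaling of edgeR over all 18 libraries. The share of reads on ribosomal RNA genes ran from 1.80% to 19.8% in sWAT Ctrl, from 3.96% to 47.8% in sWAT Csn8AKO and from 0.863% to 15.1% in BAT. Cops8, the mouse symbol of Csn8, was at 33.8 CPM in sWAT Ctrl and 31.0 CPM in sWAT Csn8AKO (log2 fold change -0.12, adjusted p = 0.623, edgeR quasi-likelihood test), and at 40.8 and 32.8 CPM in BAT (-0.30, adjusted p = 0.0211). The call in BAT was lost in 4 of 19 other settings, with an adjusted p of 0.387 when libraries were scaled by their totals alone. The counts span the whole gene and include cells without Cre, so they do not read the deleted exons. Of 15 brown fat markers, 14 were lower in sWAT than in BAT of Ctrl mice, as the tissue labels say.

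Celsr2 was the most abundant of the 6 genes in sWAT and fell in every knockout library of both depots. It lies on chromosome 3 from 108390851 to 108415552 on the minus strand of GRCm38. In sWAT Ctrl it was at 153, 195, 195 and 254 CPM, and in sWAT Csn8AKO at 8.40, 10.0, 10.6 and 10.9 CPM. In BAT Ctrl it was at 77.9, 84.6, 53.6, 69.2 and 58.7 CPM, and in BAT Csn8AKO at 30.2, 21.7, 20.6, 22.3 and 22.0 CPM. Neither depot had any overlap between genotypes, and the knockout libraries of sWAT ended below those of BAT although the sWAT controls started higher. The fall was 19.8-fold in sWAT (log2 fold change -4.31 ± 0.189, SE, n = 4 per group) and 2.89-fold in BAT (-1.53 ± 0.140, n = 5 per group).

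Vat1l was the gene with a deep fall in both depots. It lies on chromosome 8 from 114205612 to 114374071 on the plus strand. In sWAT it went from 12.7, 16.5, 13.9 and 21.2 CPM in Ctrl to 0.999, 1.63, 2.01 and 1.45 CPM in Csn8AKO. In BAT it went from 19.4, 23.2, 22.2, 18.5 and 34.9 CPM to 0.763, 0.934, 1.52, 1.54 and 2.43 CPM. The genotypes were far apart in both depots, and the knockout means were close to each other, 1.52 ± 0.420 CPM in sWAT and 1.44 ± 0.654 CPM in BAT (SD). The fall was 10.5-fold in sWAT (log2 -3.39 ± 0.265) and 16.4-fold in BAT (-4.04 ± 0.301).

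Acsm3 fell in both depots, but BAT kept a sizeable level. It lies on chromosome 7 from 119760923 to 119787513 on the plus strand. The sWAT Ctrl libraries were at 11.7, 14.3, 15.9 and 26.1 CPM, whereas the sWAT Csn8AKO libraries were at 0.681, 0.711, 0.469 and 0.650 CPM, which rested on 7 to 17 reads each. The BAT Ctrl libraries were at 92.3, 93.5, 67.4, 83.3 and 79.8 CPM, and the BAT Csn8AKO libraries at 19.6, 52.4, 29.5, 29.1 and 19.7 CPM. No knockout library reached a control library of its depot, and replicate 2 of BAT Csn8AKO, at 15.1% ribosomal RNA the richest of its depot, was the highest of the knockouts. The fall was 26.3-fold in sWAT (log2 -4.72 ± 0.306) and 2.75-fold in BAT (-1.46 ± 0.248).

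Wscd2 was lost in sWAT alone among the 2 depots, which goes against calling all 6 genes strongly lost in knockout fat. It lies on chromosome 5 from 113490333 to 113589725 on the plus strand. In sWAT it was at 24.7, 44.7, 24.7 and 28.0 CPM in Ctrl and at 4.63, 5.56, 6.30 and 5.64 CPM in Csn8AKO. In BAT it was at 6.22, 6.32, 2.12, 5.71 and 5.78 CPM in Ctrl and at 6.26, 2.07, 4.69, 4.39 and 5.74 CPM in Csn8AKO. The sWAT genotypes were apart and the BAT genotypes overlapped throughout, with 1 low library in each BAT group. The fall was 5.46-fold in sWAT (log2 -2.45 ± 0.217), to a mean of 5.53 CPM that was close to the 5.23 CPM of BAT Ctrl. In BAT the log2 fold change was -0.14 with a 95% interval from -0.834 to 0.555. It was -0.34 without replicate 3 of BAT Ctrl and 0.04 without replicate 2 of BAT Csn8AKO, the low library of each group.

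Gldn and Olig1 could be measured as lost in BAT only. Gldn, on chromosome 9 from 54286486 to 54341786 on the plus strand, was at 7.30, 2.66, 8.02, 8.97 and 4.70 CPM in BAT Ctrl and at 0.644, 0.325, 0.423, 0.827 and 0.236 CPM in BAT Csn8AKO, where it rested on 7 to 59 reads. The groups did not overlap, and the fall was 11.7-fold (log2 -3.55 ± 0.385). In sWAT, Gldn had 5 to 8 reads in each Ctrl library and 6 to 18 in each Csn8AKO library, 29 and 50 reads in all. That is 0.369 ± 0.108 CPM in Ctrl and 0.638 ± 0.187 CPM in Csn8AKO (SD), so the sWAT libraries showed no loss of Gldn to compare with that in BAT.

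Olig1, on chromosome 16 from 91269772 to 91271933 on the plus strand, had 515, 575, 269, 255 and 253 reads in the BAT Ctrl libraries and 6, 3, 45, 3 and 31 in the BAT Csn8AKO libraries. The control levels were 13.9, 10.1, 4.49, 4.85 and 4.70 CPM and the knockout levels 0.102, 0.122, 1.59, 0.042 and 1.05 CPM. All 5 knockout libraries were below every control library, but they spread widely, with replicates 3 and 5 well above the other 3. The fall was 14.6-fold with a wide error (log2 -3.87 ± 0.864). In sWAT, Olig1 had 8 reads in the 4 Ctrl libraries together (95% exact Poisson interval 0.043 to 0.195 CPM) and 2 in the 4 Csn8AKO libraries, with 5 of the 8 libraries at 0. A count of 0 allows up to 3 reads, or 0.126 to 0.217 CPM at the depths of the sWAT libraries, so a change of Olig1 in sWAT was not detectable. These intervals and limits cover counting error only.

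**Figure D1:**
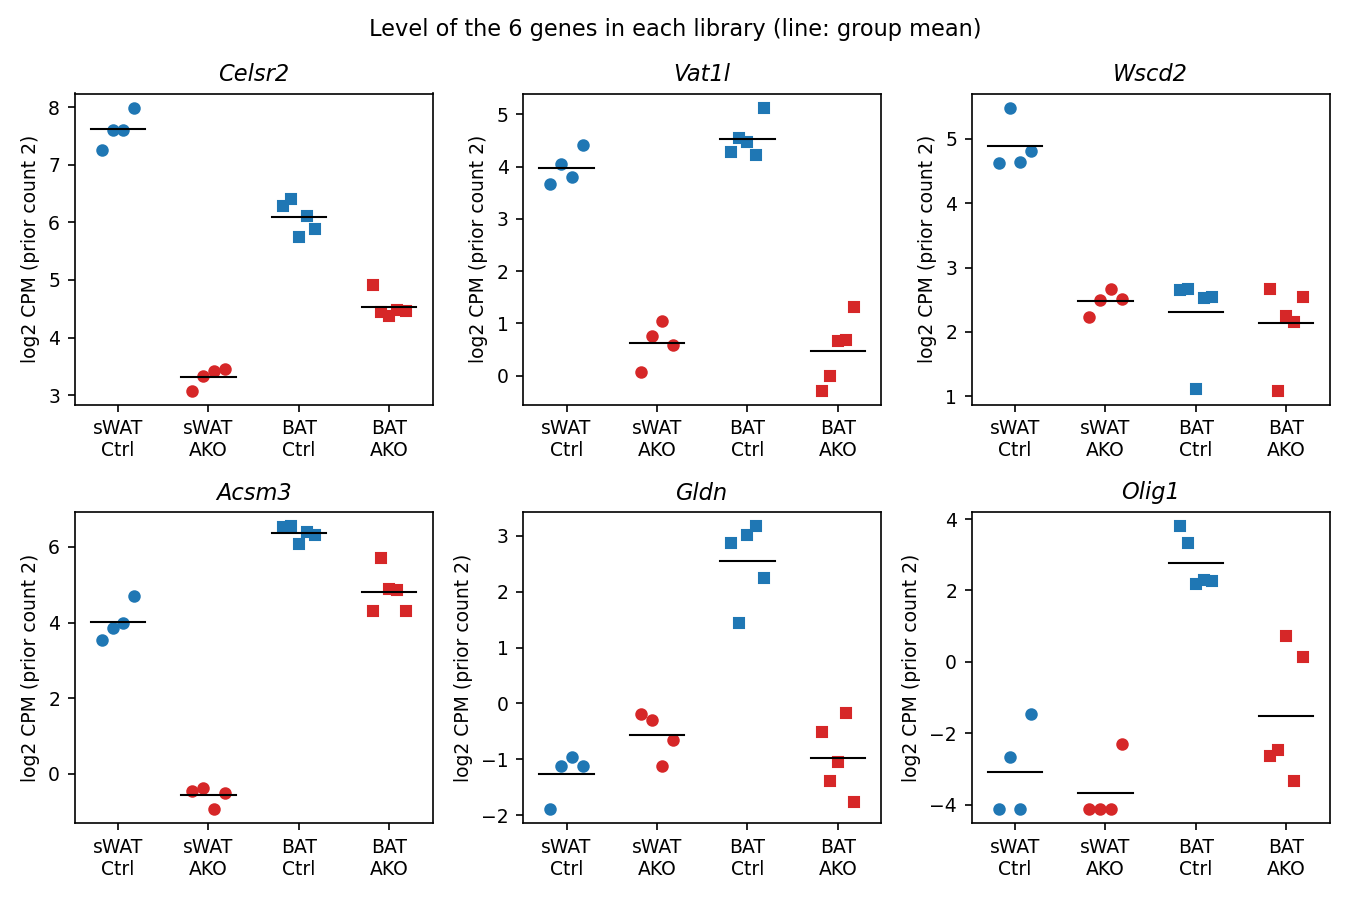
Level of each gene in each library as log2 CPM with a prior count of 2 (vertical axis), by depot and genotype (horizontal axis). Points are libraries, 4 per sWAT group and 5 per BAT group, circles for sWAT and squares for BAT, blue for Ctrl and red for Csn8AKO (AKO), and lines are group means. Celsr2, Vat1l and Acsm3 are apart between genotypes in both depots, Wscd2 in sWAT only, and Gldn and Olig1 in BAT only.

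The order of the falls differed by depot. Ranked by the size of the fitted fall among the 18843 genes tested in sWAT, Acsm3 was number 5, Celsr2 number 6, Vat1l number 15 and Wscd2 number 57, and Gldn and Olig1 did not pass the filter on low counts. Among the 22345 genes tested in BAT, Vat1l was number 10, Olig1 number 12, Gldn number 18, Celsr2 number 348, Acsm3 number 395 and Wscd2 number 8205. Over all genes tested, 3.01% were called lower and 2.30% higher in sWAT knockouts, and 15.8% lower and 16.0% higher in BAT knockouts (adjusted p under 0.05). Scaled by library totals alone, the calls were 328 lower and 106 higher in sWAT in place of 567 and 434, and 2089 lower and 4181 higher in BAT in place of 3535 and 3584. Genes whose 2 genotypes did not overlap, with the knockouts lower, made up 7.98% of those tested in sWAT and 11.6% in BAT. The 4 tested members in sWAT and 5 of the 6 in BAT were of this kind, as the way they were picked fixed. The median log2 fold change of the tested members was -3.85 in sWAT and -2.54 in BAT, against 0.03 and 0.01 over all genes tested.

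Set side by side, the change in BAT minus the change in sWAT was 2.77 ± 0.228 on the log2 scale for Celsr2, 3.25 ± 0.437 for Acsm3 and 2.30 ± 0.431 for Wscd2 (SE, all 18 libraries in the fit), which puts the estimates of these 3 lower in sWAT. For Vat1l it was -0.64 ± 0.407, with the lower estimate in BAT. For Gldn it was -4.44 ± 0.585, a value that rests on the few reads of sWAT. These differences are given without a test, since both falls chose the genes, and their errors do not cover that choice. Over all genes the same comparison called 2.36%. Celsr2 and Acsm3 thus stood near the head of the falls of sWAT, at numbers 6 and 5. In BAT they stood lower, at numbers 348 and 395 of 22345, whereas Vat1l stood near the head of both.

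**Figure D2:**
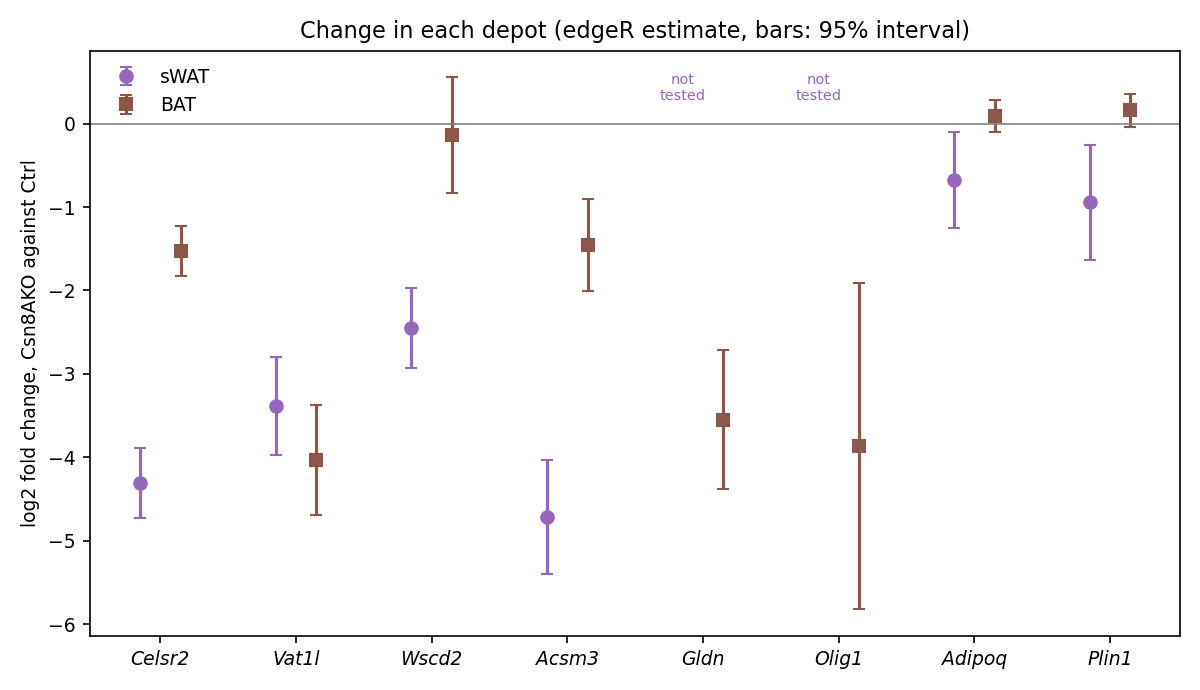
Fitted log2 fold change of Csn8AKO against Ctrl (vertical axis) for the 6 genes and for the adipocyte markers Adipoq and Plin1 (horizontal axis), circles for sWAT and squares for BAT. Bars are 95% intervals from edgeR. Gldn and Olig1 were under the filter in sWAT. Celsr2, Wscd2 and Acsm3 are lower in sWAT than in BAT on this scale, and Adipoq and Plin1 are between -0.94 and 0.16.

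Control mice, whose comparison between depots did not choose the genes, had each member at a different balance of the depots. Per kilobase of exon, the scale on which genes can be set beside each other, Celsr2 was highest in sWAT Ctrl at 17.3 CPM per kb. Acsm3 at 3.44, Vat1l at 2.94 and Wscd2 at 1.99 CPM per kb followed, and Gldn at 0.079 and Olig1 at 0.047 CPM per kb were last. In BAT Ctrl the order was Acsm3 at 16.9, Celsr2 at 5.98, Vat1l at 4.33, Olig1 at 3.52, Gldn at 1.36 and Wscd2 at 0.341 CPM per kb. Acsm3, Vat1l and Wscd2 overlapped from neighbour to neighbour in the sWAT order, as did Gldn and Olig1, and Celsr2, Vat1l and Olig1 did so in the BAT order, while Celsr2 in sWAT and Acsm3 in BAT stood clear of the rest. Celsr2 therefore led in sWAT and Acsm3 in BAT.

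Of the genes tested between the depots of Ctrl mice, 25.7% were called lower and 27.0% higher in sWAT, so a call here is common. Scaled by library totals alone, 3795 were lower and 6714 higher in place of 5748 and 6039. Celsr2 was 3.00-fold higher in sWAT than in BAT (log2 difference 1.58 ± 0.160, adjusted p = 3.5e-06, edgeR) and Wscd2 6.05-fold higher (2.60 ± 0.317, adjusted p = 7.1e-05). Acsm3 was 4.73-fold lower in sWAT (-2.24 ± 0.216, adjusted p = 6.3e-06). In each of these 3 genes the 4 sWAT libraries were all on the same side of the 5 BAT libraries. Vat1l did not pass the threshold (-0.51 ± 0.204, 95% interval -0.958 to -0.063, adjusted p = 0.054), and the depots overlapped. It passed under 6 of 18 other settings, with adjusted p from 0.0167 to 0.0474. Gldn (-4.06 ± 0.411) and Olig1 (-6.15 ± 0.759) were lower in sWAT, but both entered this comparison only through their reads in BAT and so had to differ. The depth of BAT was greater than that of sWAT in every library.

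**Figure D3:**
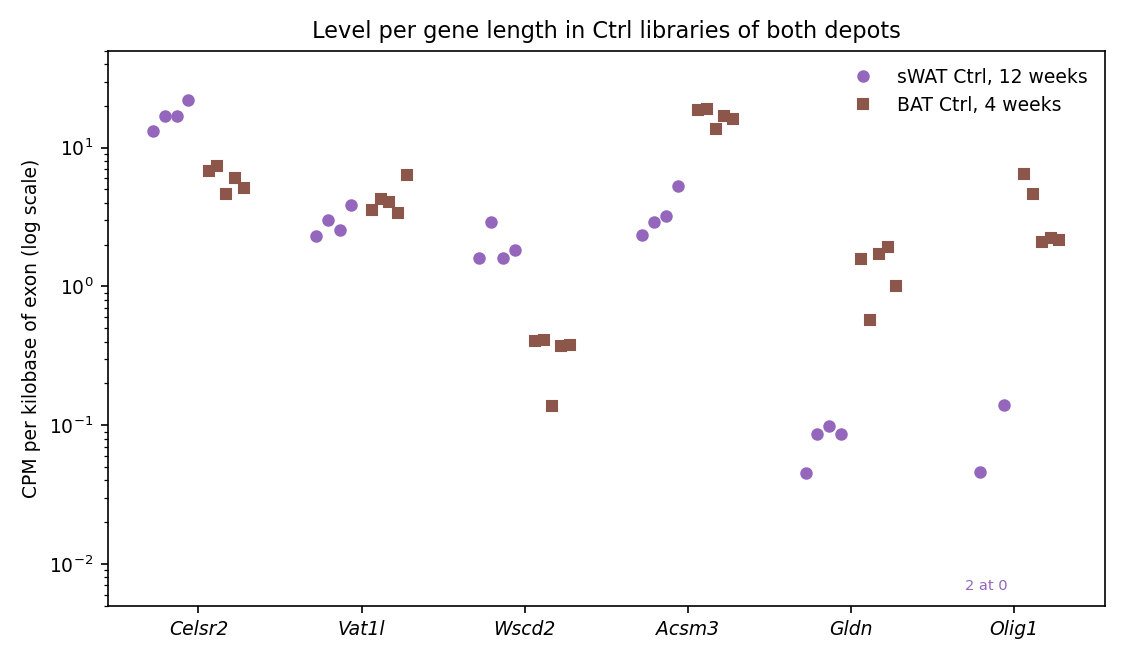
Level of each gene in Ctrl libraries as CPM per kilobase of exon (vertical axis, log scale) for sWAT at 12 weeks (4 circles) and BAT at 4 weeks (5 squares). Libraries with no read cannot be placed on a log axis and are written as a count. Celsr2 and Wscd2 lie higher in sWAT, Acsm3, Gldn and Olig1 lie higher in BAT, and Vat1l overlaps.

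The falls were set beside those of 2 defining fat cell genes. Adipoq encodes the adipocyte hormone adiponectin and Plin1 the coat protein perilipin 1 of the lipid droplet. In bulk tissue fewer fat cells and less RNA per fat cell cannot be told apart. In sWAT, Adipoq went from 1079.9, 1545, 1353 and 1492 CPM in Ctrl to 1083, 454, 909 and 961 CPM in Csn8AKO (log2 -0.68 ± 0.260, adjusted p = 0.173, edgeR). Plin1 went from 1308, 1911, 1439 and 1436 CPM to 723, 376, 851 and 1209 CPM (-0.94 ± 0.310, adjusted p = 0.114). Neither passed the threshold, and replicate 2 of sWAT Csn8AKO was the lowest for both. Plin1 passed in 5 of 18 other settings (adjusted p from 0.0121 to 0.0449) and Adipoq in 2 of 18 (0.0293 to 0.0346). In BAT the mean of Adipoq was 667 CPM in Ctrl and 699.9 CPM in Csn8AKO (log2 0.09, adjusted p = 0.474), and that of Plin1 was 1207 and 1329.7 CPM (0.16, adjusted p = 0.206).

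Of the 24 genes of an adipocyte list, 9 fell in sWAT and the other 15 did not pass, with all 24 estimates below 0. By DESeq2 14 fell and by limma voom 15, and 16 had an unadjusted p under 0.05 with edgeR. Leaving out the 4 sWAT libraries with over 15% of reads on ribosomal RNA kept replicates 1 and 4 of Ctrl and 1 and 2 of Csn8AKO. In that smaller set no gene passed by edgeR (1480 at an unadjusted p under 0.05, 0 by limma voom and 318 by DESeq2). Fewer libraries and less ribosomal RNA cannot be told apart there. With all sWAT libraries, Slc2a4, the insulin-responsive glucose transporter, had the largest fall of the list (log2 -2.12 ± 0.296, adjusted p = 0.00545, edgeR). The median of the list was -0.97 against 0.03 over all genes. The smallest change of the list was that of Lpl, lipoprotein lipase (-0.21, adjusted p = 0.782). The summed level of the list ran from 41153 to 57464 CPM in sWAT Ctrl and from 14376 to 34660.2 CPM in sWAT Csn8AKO, without overlap. In BAT 8 fell and 1 rose, with a median of -0.19, and the sums overlapped (39027 to 51496 CPM and 34183 to 44426 CPM). Retn, the hormone resistin, was the 1 that rose (3.19 ± 0.314, adjusted p = 5.8e-05), and Dgat2, an enzyme of triglyceride synthesis, fell most (-1.13 ± 0.160, adjusted p = 0.000121). The falls of the 4 members tested in sWAT, for which they were picked, were larger than that of any gene of the adipocyte list. Cidea, kept in the brown fat list below, fell further in sWAT than any of them.

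Each member was then taken relative to the mean log2 level of Adipoq and Plin1 in its own library. That mean changed by -0.90 in sWAT and 0.10 in BAT. On this scale the sWAT falls became -3.40 ± 0.336 for Celsr2, -2.47 ± 0.424 for Vat1l, -1.52 ± 0.343 for Wscd2 and -3.69 ± 0.440 for Acsm3 (log2, SE). All 4 genes had their knockout libraries below every control library of sWAT on this scale too. In BAT the changes were -1.65 ± 0.167 for Celsr2, -4.16 ± 0.318 for Vat1l, -1.66 ± 0.274 for Acsm3, -3.64 ± 0.445 for Gldn and -4.40 ± 0.873 for Olig1, again without overlap, and -0.27 ± 0.415 for Wscd2, with overlap. With the whole adipocyte list as the reference, the sWAT values were -3.32 for Celsr2, -2.39 for Vat1l, -1.44 for Wscd2 and -3.61 for Acsm3. The markers thus fell by less than these 4 genes in sWAT and did not fall in BAT, where Vat1l, Gldn and Olig1 fell most. The members were picked for large falls in these same contrasts, so the lack of overlap here describes the choice and is no test. How far fat cell loss accounts for the falls was not tested.

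**Figure D4:**
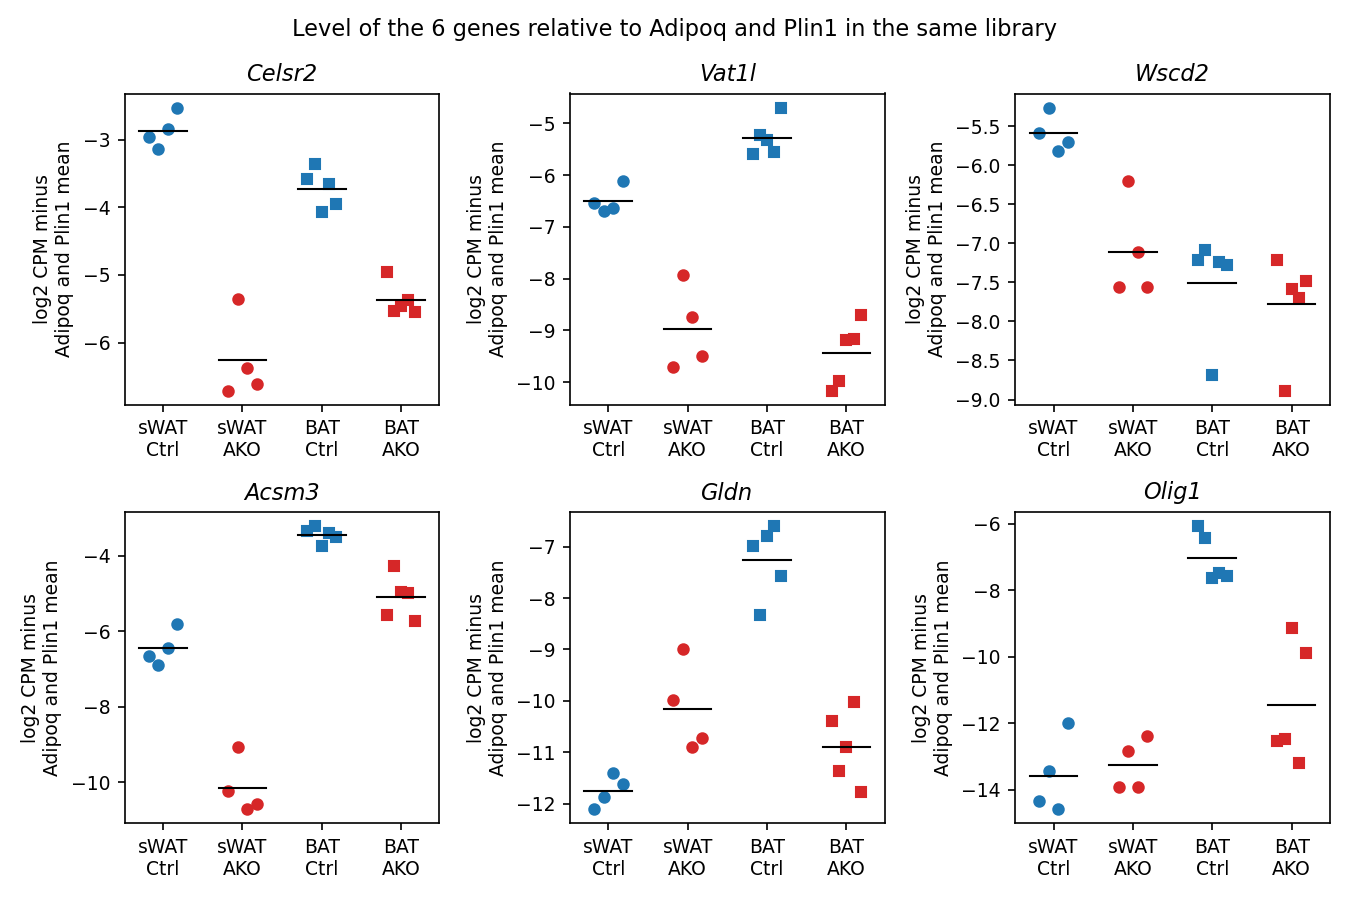
Level of each gene minus the mean log2 CPM of Adipoq and Plin1 in the same library (vertical axis, log2), by depot and genotype (horizontal axis), with 1 point per library and lines for group means. Circles are sWAT, squares BAT, blue Ctrl and red Csn8AKO (AKO). In sWAT the highest knockout library of Celsr2, at -5.36, is below the lowest control library, at -3.14, and the same order holds for Vat1l, Wscd2 and Acsm3.

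Lists of other cell types moved as well, and their part in these falls was not tested. Macrophage genes rose in both depots, 9 of 13 in sWAT (summed level 1036 to 1401 CPM in Ctrl, 1797 to 3059.9 CPM in Csn8AKO) and 11 of 13 in BAT. Fibroblast and progenitor genes rose in BAT, 10 of 10, and in sWAT 1 of 10 passed the test, against 3 by DESeq2 and 6 by limma voom, with all 10 estimates above 0 (log2 0.43 to 1.26). Schwann cells, the known source of gliomedin, gave 1 higher of 13 tested markers in sWAT, and 1 lower and 8 higher of 13 in BAT. The BAT markers that rose included Sox10, a transcription factor of the Schwann cell lineage (log2 1.62 ± 0.266, adjusted p = 0.000479), while Gldn went the other way in the same libraries. S100b, which passed as lower in BAT (-1.30, adjusted p = 0.0272) and lost this call in 8 of 19 other settings, is also made by brown adipocytes. The 8 neuron markers summed to at most 3.26 CPM in any library. Skeletal muscle genes ranged from 183 to 2942 CPM in sWAT Ctrl and from 49.9 to 1766 CPM in sWAT Csn8AKO, and lymphocyte genes from 9.67 to 342 and from 10.2 to 630.5 CPM. No gene of either list passed in sWAT (edgeR, with 0 at an unadjusted p under 0.05 and 0 by DESeq2 and limma voom). Of the brown fat list 4 of 11 fell in sWAT, led by Cidea (-7.52 ± 0.505, adjusted p = 0.000226), and 2 of 15 fell and 2 rose in BAT.

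The closest relatives of the members did not move as a block. Of 10 paralogs, 5 passed the filter in sWAT and 7 in BAT. Acsm5, which makes an acyl-CoA synthetase of the same family as Acsm3, fell in sWAT (log2 -2.72 ± 0.401, adjusted p = 0.0070, edgeR) and in BAT (-1.94 ± 0.227, adjusted p = 2.7e-05). Unlike Acsm3, Acsm5 was higher in sWAT than in BAT of Ctrl mice (2.52, adjusted p = 5.5e-06). Acsm1, Acsm2 and Acsm4 were under the filter in both depots. Olig2, the partner of Olig1 in the oligodendrocyte lineage, had 215 reads in BAT Ctrl and 7 in BAT Csn8AKO, at means of 0.857 and 0.046 CPM. It passed the filter in BAT only through its Ctrl reads and so had to be lower, and no test is given. In sWAT Olig2 was under the filter. Celsr1, also of the polarity cadherins, rose in BAT (0.83 ± 0.202, adjusted p = 0.00617, lost with all 4 groups in 1 fit, adjusted p = 0.367), and Vat1 rose in BAT too (0.93 ± 0.106, adjusted p = 2.1e-05). Celsr3 (0.49), Wscd1 (-0.29) and Olig3 (-0.50) did not pass in BAT, and in sWAT Celsr1, Celsr3, Vat1 and Wscd1 did not pass.

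Genes of the same pathways moved to differing extents. Of 16 planar polarity genes, the pathway of Celsr2, 0 passed in sWAT with edgeR, DESeq2 or limma voom, and 2 had an unadjusted p under 0.05, with estimates from -0.43 to 0.77. In BAT 1 of them fell, Prickle3 (log2 -0.48), and 2 rose, Ptk7 (0.70) and Dchs1 (0.47), the last of which lost its call in 10 of 19 other settings. The acyl-CoA synthetases are the wider class of Acsm3. In sWAT 12 of 14 had estimates below 0 (median -0.41 against 0.03 over all genes), and 3 of 14 fell. These were the acetoacetyl-CoA synthetase Aacs (-1.63), Acsf3 (-1.12) and Acsf2 (-0.89), the last of which lost its call in 7 of 18 other settings. In BAT 4 of 15 fell and 3 rose, with Aacs (-0.94) and Acsf3 (-0.89) among the falls and Acsl5 (1.13) the largest rise. Of the genes that act with gliomedin at the node of Ranvier, its partners Nfasc (1.44) and Nrcam (1.39) rose in BAT with 3 others. Cntnap1 fell in BAT (-0.75) and in sWAT (-1.11). Of the 9 tested in BAT, 1 had an estimate below 0, with a median of 0.94 against 0.01 over all genes. The call of Nfasc was lost in 9 of 18 other settings, and its rise was 0.77 without replicate 5 of BAT Csn8AKO (adjusted p = 0.184, edgeR). Of the oligodendrocyte genes, 4 of 10 passed the filter in BAT and 3 of those rose (Sox8, Myrf and Mag, at means of 0.448, 2.53 and 0.572 CPM in knockouts), opposite to Olig1. Their calls were lost in 11 of 18, 6 of 19 and 1 of 18 other settings. The share of genes called in each list stands beside the background shares of each depot given above, and no list was tested as a set.

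The genes next to the members were examined on GRCm38. Psrc1, a microtubule-associated gene that ends 2619 bases from Celsr2 on the other strand, was higher in BAT knockouts (log2 4.07 ± 0.513) where Celsr2 fell. It passed the filter in BAT only through its Csn8AKO reads and so had to be higher, and no test is given. Psrc1 was at a mean of 0.108 CPM in BAT Ctrl, 30 reads over 5 libraries, and 1.89 CPM in BAT Csn8AKO. The size of its rise therefore rests on few control reads. In sWAT its estimate was 1.86 (adjusted p = 0.0515). On the other side, Sars, a seryl-tRNA synthetase, changed by 0.31 in BAT (adjusted p = 0.00344) and did not pass in sWAT. Olig2 lies 41094 bases from Olig1 on the same strand, and both were lower in BAT knockouts, Olig2 with the limit given above. Ifnar2 on the other side changed by -0.37 in BAT (adjusted p = 0.00147, edgeR). The call of Ifnar2 was lost when libraries were scaled by their totals alone (adjusted p = 0.122).

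Vat1l is overlapped over 10320 bases by 4933408N05Rik on the opposite strand. That gene had 104 reads in BAT Ctrl, at a mean of 0.395 CPM, and 1 in BAT Csn8AKO. It passed the filter in BAT only through its Ctrl reads and so had to be lower, and no test is given. The strand setting of the counting is not given in the sources used here, so reads of this pair may not be separated. Beyond it, Nudt7 did not pass and Wwox fell in BAT (-0.81, adjusted p = 3.0e-05). Around Acsm3, Eri2 overlaps 18835 bases on the opposite strand, and Eri2, Ppp1ccb and Rexo5 did not pass in either depot, with estimates from -0.60 to 0.10. Near Wscd2, Cmklr1, the receptor of the adipokine chemerin, rose in BAT (1.20 ± 0.169, adjusted p = 0.000137) and had an estimate of -0.81 in sWAT (adjusted p = 0.0709). Sgsm1 on its other side did not pass, nor did Tnfaip8l3 and Dmxl2 beside Gldn, in the depots where they were tested. Gldnos and Gm15966, which overlap Gldn and Olig1, were under the filter.

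**Figure D5:**
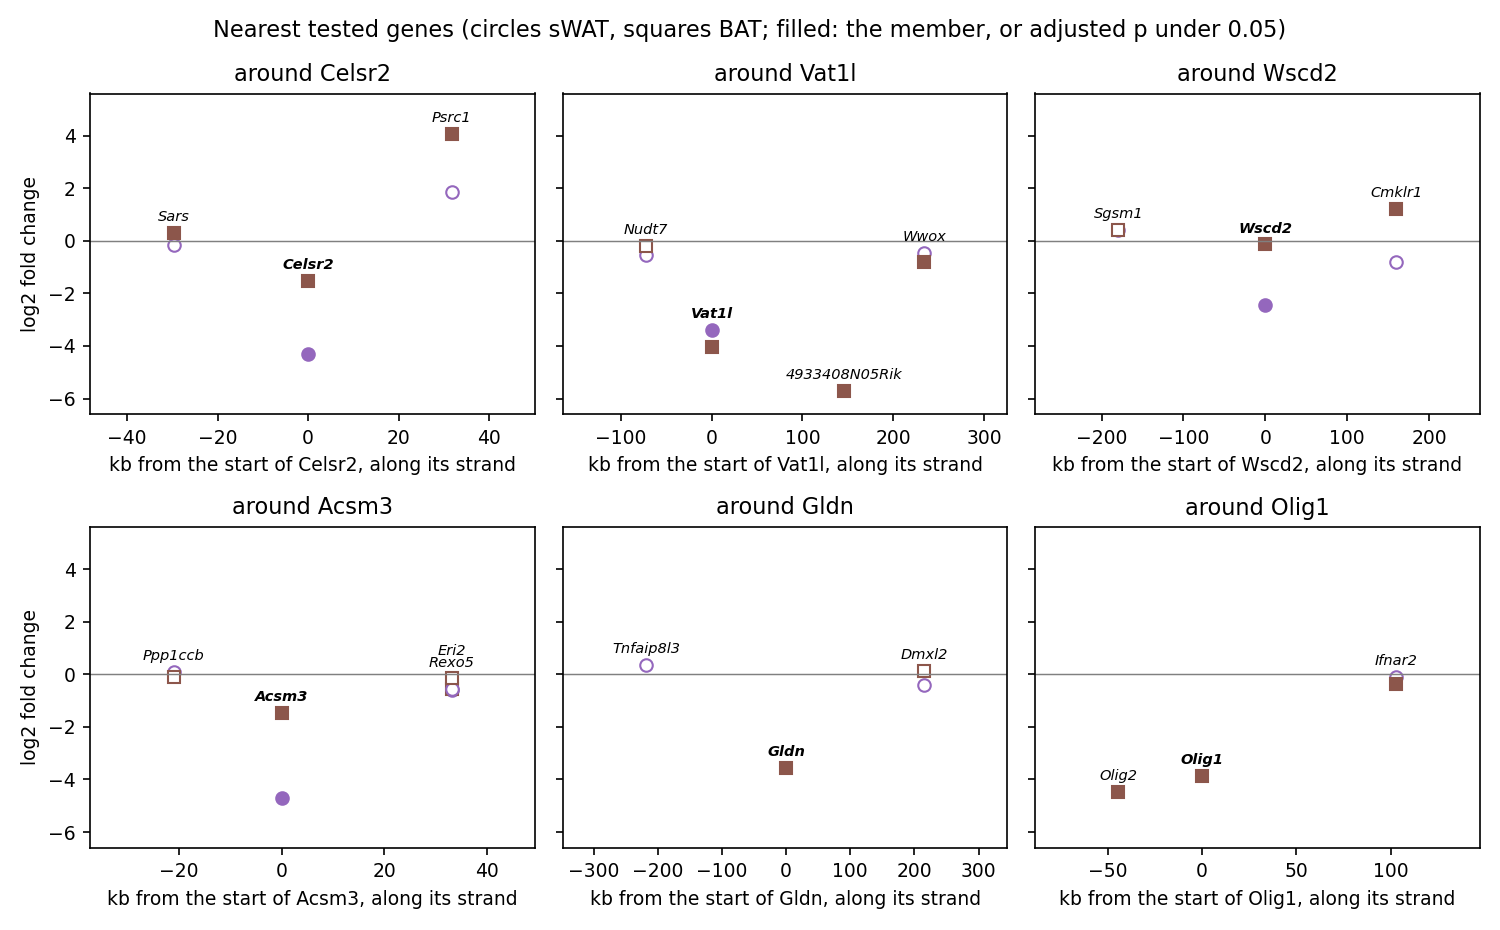
Fitted log2 fold change of Csn8AKO against Ctrl (vertical axis) for each member and its nearest tested genes, by distance between gene starts in kb along the strand of the member (horizontal axis). Circles are sWAT, squares BAT, and filled symbols are members or genes with an adjusted p under 0.05. Olig2 lies low beside Olig1, and Psrc1 lies high beside Celsr2, at 4.07 in BAT, a value that rests on few control reads.

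The genes whose log2 levels ran most alike over the 18 libraries differed from member to member. For Celsr2 they were Ncor1, a corepressor of nuclear receptors (Pearson r = 0.956), Adam3 (0.940) and Fam120c (0.923). For Vat1l they were Asb13 (0.941), Zdhhc2 (0.939) and Myh14 (0.930), and for Wscd2 they were Sec24b (0.928), Ncam2 (0.905) and Dcst1 (0.904). Acsm3 ran with Gm44386 (0.977) and Gm9885 (0.962). Gldn ran with Gm41414 (0.922), Lynx1 (0.901) and Tmem200c (0.896), and Olig1 with Gm44696 (0.923), Camsap2 (0.920) and A430078I02Rik (0.918). No gene stood among the 3 nearest of more than 1 member. Among the members themselves r was highest for Celsr2 with Vat1l (0.820) and for Gldn with Olig1 (0.766), and lowest for Wscd2 with Gldn (-0.380). These coefficients are descriptions over 4 groups that share depot, age and genotype, and they do not read the size of a change. Ncor1, the nearest to Celsr2, changed by -0.39 in sWAT and -0.19 in BAT on the log2 scale. It passed in neither depot (adjusted p = 0.131 and 0.0642, edgeR).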

How the data were processed

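Total RNA was depleted of ribosomal RNA, reverse transcribed with random hexamers and sequenced as paired reads. Per the paper's methods the authors aligned reads to the Ensembl mouse assembly GRCm38 with STAR and deposited raw counts per gene from featureCounts, using reads that mapped to 1 place and 1 gene. No strand setting is given in the sources used here. The 18 tables hold 55487 genes. Gene positions came with the deposited counts, gene types from the GENCODE M21 annotation and promoters from RefSeq. GENCODE M21 gave the same position for 54870 of the 55487 genes.

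Counts were tested with edgeR 4.0.16 (R 4.3.3), using TMM factors, filterByExpr with a minimum count of 10 and total of 15, the quasi-likelihood test and Benjamini-Hochberg adjustment over all genes tested. Genotypes were compared within each depot and depots within Ctrl. The difference of falls used all 18 libraries. Levels are CPM, or log2 CPM with a prior count of 2, and ± after a fold change is its standard error. On simulated counts with 200 genes changed by 2 on the log2 scale, 71.5% were recovered in sWAT with 5.92% false calls, and 87.5% in BAT with 5.91%. Those counts were drawn gene by gene from the model that the test assumes. They hold no differences in ribosomal RNA share or cell make-up between libraries, so they do not show how the test does under these. P-values measure the spread between libraries of separate mice. The 6 genes, the gene lists and the alternatives were chosen with earlier results of these data known. Genes named were the members, Cops8, adipocyte markers, all measured paralogs, pathway genes that passed (at most 6 a list), cell type markers, the nearest tested or overlapping genes and the 3 most correlated genes, of which 1 is not reported here. Sox10, S100b and Cidea were named after their values were seen. Replicate numbers did not pair the libraries (correlation of deviations from -0.380 to 0.219 between same numbers).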

Additional observations from a re-analysis of the deposited data

Results flagged for a closer look

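In 3 of 24 groups of 4 or 5 libraries checked over the 6 genes, 1 library lay apart from the others. The gap over the range was past the 95% limit of Dixon's test, which chance alone gives in about 1 group of 20 where values are not tied. Replicate 1 of BAT Csn8AKO had the highest Celsr2, at 30.2 CPM or 4.92 on the log2 scale, against 4.37 to 4.48 in the other 4, a gap of 0.7946 of the range. Replicate 3 of BAT Ctrl had the lowest Wscd2, at 2.12 CPM, with a gap of 0.9059 of the range. Without it the log2 fold change of Wscd2 in BAT was -0.34 ± 0.243 in place of -0.14. Replicate 4 of sWAT Csn8AKO had 2 reads of Olig1 where the other 3 had none, a gap equal to the whole range (1), and lies under the limit of 3 reads. With the other 3 tied, any read would have given this gap, so this flag carries no weight.

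The change in BAT minus the change in sWAT differed from 0 in 5 of 90 genes (edgeR interaction test, adjusted over all genes), which were the paralog, pathway and adipocyte lists, the neighbours of the members, and Cidea, Sox10 and S100b. It was 1.986 on the log2 scale for Cmklr1, the neighbour of Wscd2, 3.737 for Retn and 1.557 for Slc2a4, the last 2 from the adipocyte list. It was 7.016 for Cidea and -2.421 for S100b. All 5 kept this call in the 24 other settings run. Among all genes tested, this test called 532 of 22509 (2.36%). Cidea, Sox10 and S100b joined the 90 after their values were seen. The count of 5 of 90 is thus partly picked from the same data and cannot be read as a rate. Of the genes named for running with a member, Ncam2 (3.56), Gm44386 (2.16) and Lynx1 (-1.40) passed the same test too, as did Gm9885 and Gm41414, which had 0 reads in sWAT Csn8AKO and in sWAT Ctrl, respectively, and so get no size here. These 5 were picked over the same libraries.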

How the results depend on the processing

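The falls of the members held their direction in every setting run, except that of Wscd2 in BAT given above. The members were picked for large falls in these same libraries, so the choice largely fixed this and it is no support. Of their fold changes, 197 moved by less than the spread between replicates and 9 by more. The median fall in sWAT was -3.85 and became -2.83 relative to Adipoq and Plin1 and -2.76 relative to the adipocyte list, by the change of scale itself. Without the 4 sWAT libraries with over 15% ribosomal RNA, a setting chosen after seeing the data, it was -4.04. Celsr2 was then at -4.43 ± 0.365, Vat1l at -3.65 ± 0.444, Wscd2 at -2.34 ± 0.269 and Acsm3 at -4.71 ± 0.519. The count of called genes fell to 0 in this smaller set, where fewer libraries and less ribosomal RNA cannot be told apart. Olig1 in BAT was -5.39 by limma voom. The number of genes called in sWAT, 1001, varied widely. It was 434 by library totals alone, 1946 by DESeq2, 2129 by limma voom and 2462 with all 4 groups in 1 fit. Without 1 library it was 326 to 1477, lowest without replicate 3 and highest without replicate 2 of Csn8AKO. It was 374 to 481 without Ctrl 2, 3 or 4 or Csn8AKO 1. With the replicate block it was 299, and 6776 in place of 7119 in BAT, but the numbers did not pair the libraries. The difference of falls called 532 genes, and 914 by limma voom. The causes were not tested. Scaling by totals shifted the median of all genes by 0.13 in BAT and 0.19 between depots. Of the results for other named genes, 3757 stayed on their side of the threshold, 267 lost and 50 gained a call. Levels under 1 CPM in sWAT rest on 22 reads per library or fewer.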
